A study of Mus musculus with 6 samples.

Results

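The set described here is 8 transcription factors that act in the oligodendrocyte lineage, from specification to myelination: Olig1, Olig2, Nkx2-2, Zfp488, Nkx6-2, Myrf, Tcf7l2 and Myt1. They were taken by gene symbol from 19937 genes measured by a probe set that the platform annotation pairs with 1 gene, and each had 1 such probe set among the 34760 of the array. The cells were proliferating neural stem cells and progenitors of 8-week-old 129SV mice, grown as neurospheres with EGF and bFGF, replated and collected at passage 2. In the Sirt1 inactive cultures (NestinCre;Sirt1lox/lox, 3 samples), the cells carried floxed Sirt1 alleles and a Cre recombinase driven by the promoter of Nestin, a gene of neural stem and progenitor cells, and the labels describe them as lacking active SIRT1. The control cultures (Sirt1lox/lox, 3 samples) carried the same floxed alleles without Cre and express active SIRT1. Because the controls have no Cre, effects of Cre and of Sirt1 loss cannot be told apart. The labels do not state whether mice were pooled. All values are log2 RMA values, so a difference of 1 is a doubling on that scale.

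Oligodendrocytes are the myelin-forming glia of the central nervous system, and adult neural stem cells give rise to them through proliferating progenitors. OLIG2, a basic helix-loop-helix factor, commits progenitors to the lineage, and SOX10 is induced along the way. Leaving the cell cycle and making myelin then need a second set of factors, among them MYRF, which is cut from a membrane-bound precursor and switches on myelin genes together with SOX10. SIRT1 is an NAD-dependent deacetylase of histones and transcription factors, and the comparison asks how the transcripts of these progenitors differ when it is not active.

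RefSeq's table of promoter windows (build GRCm38.p6) held 6 of the 8 factors. Shown here are the bases that precede the annotated genes of Olig2, Myt1, Tcf7l2 and Nkx6-2, because these are the ones of the 6 with a window that starts outside the annotated gene. Capitals mark an E-box (CANNTG, the core bound by helix-loop-helix factors such as OLIG2) or a SOX core (ACAAT or its reverse complement ATTGT); each runs 5′ to 3′ on the strand of its gene.
Olig2 (chr16:91225300-91225549, + strand): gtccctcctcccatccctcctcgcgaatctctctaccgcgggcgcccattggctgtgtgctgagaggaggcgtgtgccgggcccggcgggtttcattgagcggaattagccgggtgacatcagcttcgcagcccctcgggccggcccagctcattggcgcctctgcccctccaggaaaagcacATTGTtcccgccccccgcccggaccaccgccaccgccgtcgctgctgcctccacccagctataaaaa
Myt1 (chr2:181763082-181763331, + strand): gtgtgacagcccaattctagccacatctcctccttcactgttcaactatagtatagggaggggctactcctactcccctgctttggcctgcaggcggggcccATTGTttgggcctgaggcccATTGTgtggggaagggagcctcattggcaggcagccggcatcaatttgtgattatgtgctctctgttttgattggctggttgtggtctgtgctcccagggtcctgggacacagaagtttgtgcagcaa
Tcf7l2 (chr19:55741560-55741796, + strand): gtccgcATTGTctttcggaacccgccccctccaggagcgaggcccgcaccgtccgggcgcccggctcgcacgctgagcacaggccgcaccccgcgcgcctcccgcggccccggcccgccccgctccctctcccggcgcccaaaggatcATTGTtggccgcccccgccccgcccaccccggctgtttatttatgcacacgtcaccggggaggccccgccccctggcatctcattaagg
Nkx6-2 (chr7:139582798-139583047, - strand): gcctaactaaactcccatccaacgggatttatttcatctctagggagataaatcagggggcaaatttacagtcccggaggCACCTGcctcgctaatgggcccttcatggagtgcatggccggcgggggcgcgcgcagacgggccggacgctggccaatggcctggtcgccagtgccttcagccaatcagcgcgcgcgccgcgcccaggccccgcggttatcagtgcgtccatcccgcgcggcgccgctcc
The windows of Olig2, Myt1 and Nkx6-2 are 250 bases long, and that of Tcf7l2 is 237 after the bases inside its gene were left out. On both strands, Olig2 had 1 SOX core, 67 bases before the start site, Myt1 had 2 (148 and 128 bases before it), Tcf7l2 had 2 (244 and 102 bases before it) and Nkx6-2 had 0. The only E-box in these windows was that of Nkx6-2, 170 bases before the start site, and no base was shared between the motifs. Of 32851 windows of 250 bases in the RefSeq table, 66.2% held an E-box and 27.7% a SOX core. The NK2 core AAGTG (40.7% of all windows) and the TCF core CTTTGA (13.8%) were found in 0 of these 4. RefSeq's table held 9 windows of the 6 factors, and those inside the annotated genes are not shown. Among them that of Nkx2-2 held 3 E-boxes, 1 NK2 core and 1 SOX core, and that of Zfp488 held none of the 4 motifs searched. Further windows of Myt1 held 2 and 1 E-boxes, and a further window of Tcf7l2 held 1 NK2 core. A match describes letters and not a bound site, and the arrays do not measure binding.

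None of the 8 factors differed between the genotypes at an adjusted p under 0.05 (limma). All had an adjusted p = 0.959 (limma, Benjamini-Hochberg over 22961 probe sets). At this threshold 0 of 8 passed, as did 0% of all tested probe sets, and at an unadjusted p under 0.05 it was 0 of 8 against 3.61% of all. Differences of 7 factors were below 0 and that of Tcf7l2 was above 0. A difference below 0 was also the more common sign over all tested probe sets (60.1%). The median difference of the 8 was -0.13 and that of all measured genes -0.02. With array medians subtracted these medians were -0.11 and 0.001, and 48.9% of all probe sets were below 0. The values of the genotypes overlapped for all 8 factors, where 9.33% of all tested probe sets had no overlap.

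**Figure D1:**
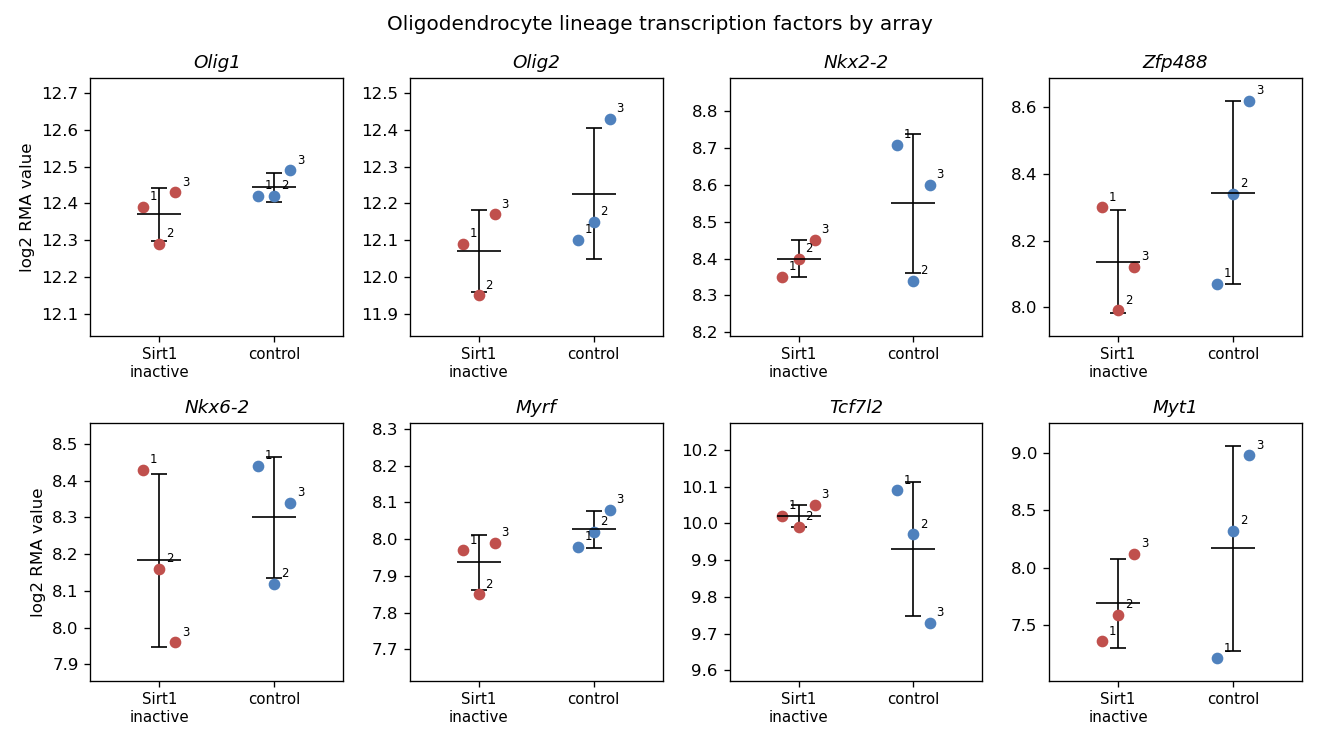
Log2 RMA values of the 8 factors (y axis, a separate range for each panel) in Sirt1 inactive and control cultures (x axis), with 1 point per array numbered by replicate; bars are the mean ± SD of 3 arrays. In every panel the values of the genotypes overlap, and control replicate 3 is the highest array for Olig1, Olig2, Zfp488, Myrf and Myt1 and the lowest for Tcf7l2.

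Sirt1 itself read 8.26, 8.33 and 8.25 in the Sirt1 inactive arrays, against 8.73, 8.78 and 8.55 in the control arrays. The genotypes did not overlap, and the difference of -0.41 did not pass over all probe sets (limma, adjusted p = 0.959). Array medians lay between 7.36 and 7.39, and all values of the 8 factors lay above the arrays' lower quartiles (5.78 to 5.83). Control replicate 3 was the most distant array: over all tested probe sets its median distance to the mean of the rest was 0.117, and for the other 5 it was 0.059 to 0.089, so results are also given without it. Samples with the same replicate number deviated together from their genotype means (correlations of 0.47, 0.36 and 0.27), and differences within same-numbered pairs are therefore given too. The labels do not state that same-numbered samples were paired, so the pairs are assumed from these values.

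Olig2, the specification factor, read 12.09, 11.95 and 12.17 in the Sirt1 inactive arrays and 12.10, 12.15 and 12.43 in the control arrays. The highest value was that of control replicate 3, and Sirt1 inactive replicate 3 lay above the other control arrays. The difference was -0.15 (SE 0.10, 95% interval -0.40 to 0.09), or 0.899-fold (0.757 to 1.07). It was -0.05 without control replicate 3. Within pairs Olig2 was lower in 3 of 3, by amounts that ranged from -0.01 in the pair of number 1 to -0.26 in that of number 3.

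Olig1, the neighbour of Olig2 on chromosome 16 with 0 annotated genes between them, is a related factor that works in oligodendrocyte maturation and myelin repair. It read 12.39, 12.29 and 12.43 in the Sirt1 inactive arrays, against 12.42, 12.42 and 12.49 in the control arrays. Its values spanned 0.20 over the 6 arrays, and the residual SD of 0.0595 was larger than that of 17.7% of tested probe sets. The difference was -0.07 (SE 0.06), and its interval of -0.22 to 0.08 corresponds to 0.857-fold to 1.06-fold. Olig1 was lower in 3 of 3 pairs (-0.03, -0.13 and -0.05), as was Myrf, described below. That makes 3 of the 8 factors lower in every pair, where 20.7% of all tested probe sets were. For these 3 the pair of number 1 was nearly level.

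Nkx2-2, a homeodomain repressor of progenitors that turn to differentiation, read 8.35, 8.40 and 8.45 in the Sirt1 inactive arrays and 8.71, 8.34 and 8.60 in the control arrays. Its Sirt1 inactive values were close together and lay between the control values, since control replicate 2 was the lowest array of all. The difference was -0.15 (SE 0.10, 95% interval -0.39 to 0.09). Without control replicate 2 it was -0.26 (unadjusted p = 0.0146, limma adjusted p = 0.846), and without control replicate 1 it was -0.07. An antisense RNA gene, Nkx2-2os, overlaps Nkx2-2 in RefSeq's annotation, and whether its transcripts reach this probe set was not tested.

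Among the factors of the step to differentiation, Zfp488, a zinc-finger protein that cooperates with OLIG2, read 8.30, 7.99 and 8.12 in the Sirt1 inactive arrays. Its control values of 8.07, 8.34 and 8.62 were spread wider and enclosed all but the lowest of them. The difference was -0.20 (SE 0.15, 95% interval -0.55 to 0.14). The pairs did not run one way, with 0.23 in number 1, -0.35 in number 2 and -0.50 in number 3. Without control replicate 3 the difference was -0.07, and without control replicate 1 it was -0.34 (unadjusted p = 0.0295, limma adjusted p = 0.741).

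Tcf7l2, an HMG-box partner of beta-catenin that appears for a short time in newly forming oligodendrocytes, read 10.02, 9.99 and 10.05 in the Sirt1 inactive arrays, against 10.09, 9.97 and 9.73 in the control arrays. The control arrays were spread around the Sirt1 inactive ones, with control replicate 1 the highest and control replicate 3 the lowest of all. The difference was 0.09 (SE 0.09, 95% interval -0.13 to 0.31), the only one above 0 among the 8. It was -0.01 without control replicate 3, so its sign rests on that array.

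Nkx6-2, a homeodomain factor of maturing oligodendrocytes that shapes the contacts between myelin and axon, read 8.43, 8.16 and 7.96 in the Sirt1 inactive arrays and 8.44, 8.12 and 8.34 in the control arrays. The pairs of numbers 1 and 2 were nearly level (-0.01 and 0.04), and the pair of number 3 differed by -0.38. The difference over all arrays was -0.12 (SE 0.13, 95% interval -0.43 to 0.20). It was -0.01 without Sirt1 inactive replicate 3, the lowest array.

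Myrf, the activator of myelin genes, read 7.97, 7.85 and 7.99 in the Sirt1 inactive arrays, against 7.98, 8.02 and 8.08 in the control arrays. The genotypes overlapped only by the narrow margin between Sirt1 inactive replicate 3 and control replicate 1. The difference was -0.09 (SE 0.07, 95% interval -0.24 to 0.07), or 0.846-fold to 1.05-fold at the ends of the interval. Leaving out each array in turn kept it between -0.11 and -0.05. Its exact two-sided permutation p was 0.2, the smallest of the 8, where 3 against 3 arrays cannot give less than 0.1, and those of the other 7 were 0.3 to 0.6.

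Myt1, a zinc-finger factor of oligodendrocyte progenitors that is also made in newborn neurons, varied most between cultures. It read 7.36, 7.59 and 8.12 in the Sirt1 inactive arrays and 7.21, 8.32 and 8.98 in the control arrays. Values of number 1 were the lowest and those of number 3 the highest in both genotypes. Over the 6 arrays they spanned 1.77, and the residual SD of 0.688 was larger than that of 99.6% of tested probe sets. The difference was -0.48 (SE 0.42), with an interval of -1.48 to 0.52, so levels of 0.36-fold and of 1.43-fold relative to control both lie within it. It was -0.08 without control replicate 3 and -0.96 without control replicate 1 (unadjusted p = 0.00863, limma adjusted p = 0.741). With the replicate number as a block the SE was 0.20 and the difference still did not pass (limma, unadjusted p = 0.0595, adjusted p = 0.656).

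**Figure D2:**
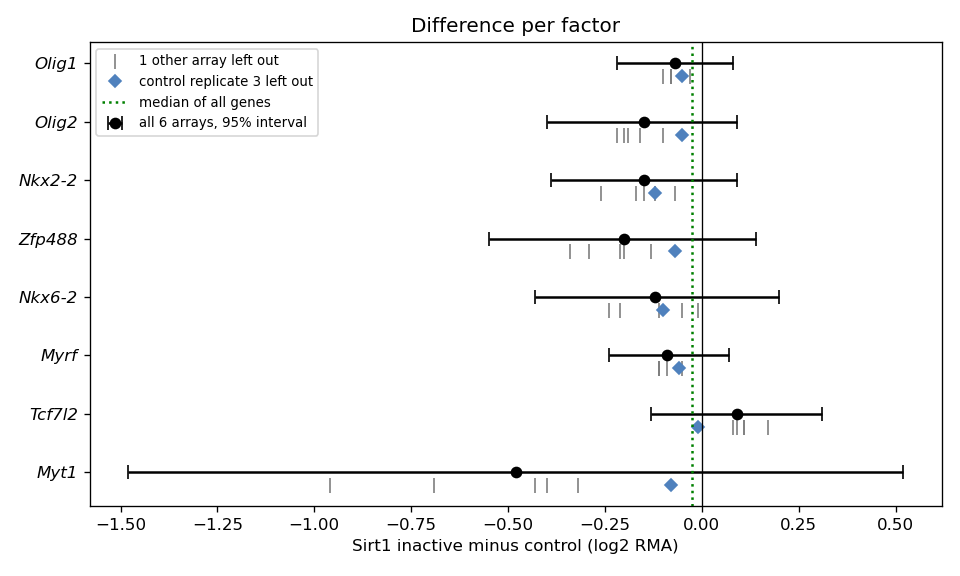
Log2 difference, Sirt1 inactive minus control (x axis), for each factor (y axis), with its 95% interval from limma over 6 arrays (black), the differences with 1 array left out (grey ticks) and with control replicate 3 left out (blue). Every interval includes 0, that of Myt1 is the widest (-1.48 to 0.52), and without control replicate 3 all 8 differences lie between -0.12 and -0.01.

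Control replicate 3 set the high end for 5 of the 8 factors (Olig1, Olig2, Zfp488, Myrf and Myt1), and Sirt1 inactive replicate 2 the low end for 4 (Olig1, Olig2, Zfp488 and Myrf). Without control replicate 3 all 8 differences were below 0, with a median of -0.06 against -0.01 for all genes, and 53.7% of all probe sets were below 0. In that array markers of other cell types also stood apart. The mean of 19 measured neuroblast and neuron markers lay 0.23 above its mean over the 6 arrays. That list mean ranged between 7.69 and 7.87 in Sirt1 inactive arrays and between 7.78 and 8.07 in control arrays, with 13 of the 19 markers below 0. The mean of 15 astrocyte markers deviated by -0.47 there, with ranges of 10.49 to 10.57 in Sirt1 inactive arrays and 9.96 to 10.54 in control arrays, and 12 of 15 above 0. Without control replicate 3, 8 of the 15 astrocyte markers were above 0, with a median of 0.01 in place of 0.14. RMA values have no 0, so absence of a marker cannot be read from them. The part of other cell types in the values of the 8 factors was not tested, and in bulk cultures fewer cells of a type and less RNA per cell cannot be told apart.

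**Figure D3:**
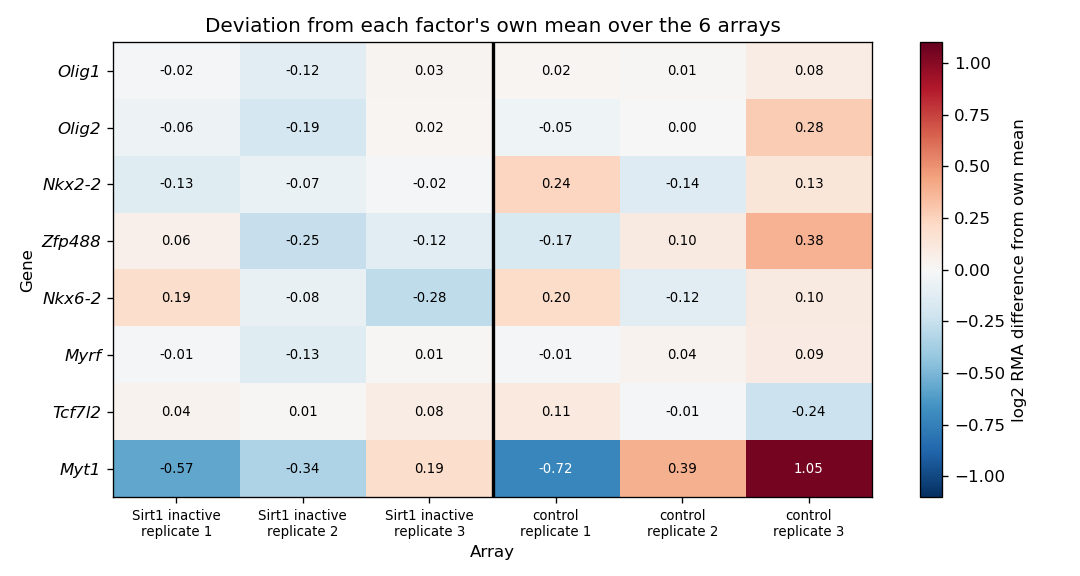
Deviation of each factor (rows) from its own mean over the 6 arrays (columns), in log2 RMA units, red above and blue below the mean; the black line divides Sirt1 inactive from control arrays. Control replicate 3 holds the highest value of Myt1 (1.05 above its mean) and the lowest of Tcf7l2 (-0.24), and the row of Olig1 stays within -0.12 and 0.08.

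Over the 6 arrays the values of Olig1, Olig2 and Myrf varied in the same order or nearly so. Of 28 pairs among the 8, the highest r was that of Olig1 and Myrf (Pearson r = 0.97, exact permutation p = 0.0111; Spearman rho = 0.83, exact permutation p = 0.0583). It was 0.36 after the 2 arrays farthest from the median of Olig1 were left out, which also narrows the range of values. Olig1 and Olig2 had r = 0.89 and rho = 0.94 (exact permutation p = 0.0361 and 0.0167), and r = 0.76 without the 2 farthest arrays. Olig2 and Myrf had r = 0.90 and rho = 0.94 (exact permutation p = 0.0417 and 0.0167), and r = 0.60 without them. Tcf7l2 and Myt1 ran in opposite directions, with r = -0.84 and rho = -0.83 (exact permutation p = 0.0292 and 0.0583), and r = -0.18 without the 2 farthest arrays. Olig2 and Myt1 had r = 0.82 and rho = 0.71 (exact permutation p = 0.0403 and 0.136), and r = 0.90 without the 2 farthest arrays. For Olig2 and Tcf7l2 r was -0.79 and rho -0.31 (exact permutation p = 0.117 and 0.564), and r = -0.27 without the 2 farthest arrays. Zfp488 also varied with several factors. Its r was 0.88 with Olig2, 0.84 with Myrf and -0.84 with Tcf7l2 (exact permutation p = 0.0236, 0.0389 and 0.0417). Without the 2 farthest arrays these were -0.03, 0.53 and -0.94. Without control replicate 3 r was 0.26 for Olig2 and Tcf7l2, so its sign changed with the arrays left out. Without that array r was -0.54 for Tcf7l2 and Myt1 and 0.49 for Olig2 and Myt1. For Zfp488 it was 0.59 with Olig2, 0.74 with Myrf and -0.41 with Tcf7l2. It was 0.95 for Olig1 and Myrf, 0.96 for Olig1 and Olig2 and 0.95 for Olig2 and Myrf. After adjustment over the 28 pairs 0 passed, with a smallest adjusted p of 0.146 for r and 0.233 for rho (exact permutation, 6 arrays). For deviations from the genotype means r was 0.95 for Olig1 and Myrf, 0.84 for Olig1 and Olig2, 0.86 for Olig2 and Myrf and -0.81 for Tcf7l2 and Myt1. Nkx2-2 and Nkx6-2 had an r between -0.33 and 0.45 with the other factors over all 6 arrays, but without control replicate 3 r was 0.86 for Nkx2-2 and Tcf7l2 and -0.85 for Nkx6-2 and Myt1.

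Genes whose pattern over the 6 arrays was most like that of a factor were ranked by Pearson r among 10112 genes of above-median brightness. Nearest to Olig2 were Slc25a12, Klf2 and Bicral (r = 0.998 each), and nearest to Olig1 were Dcaf7 (0.996), Gtf2i (0.994) and Clip3 (0.992). Myrf was nearest to Zcchc2 (0.996), Lrrc49 and Dner (0.991 each), where Dner is a Notch ligand of neurons. Myt1 was nearest to Lgr5, a receptor for R-spondins (0.997), Zbtb9 (0.996) and the semaphorin receptor gene Plxnc1 (0.995). Tcf7l2 was nearest to the collagen chaperone gene Serpinh1 (0.998), Emp2 (0.997) and Mrpl17 (0.996). The others were Nkx2-2 (nearest Cnppd1 at 0.992, Erich3 and Man1b1 at 0.977 each), Zfp488 (nearest Ppp2r2b and Tnfaip8l2 at 0.984 each, Mir680-3 at 0.981) and Nkx6-2 (nearest Ghrhr at 0.988, Cltb at 0.986, Prp2 at 0.979). With 6 points and so many genes such values are common: 5.61% of these genes had an r above 0.9 with Olig2, 5.58% with Myt1 and 5.07% with Tcf7l2, but 2.24% with Olig1, 1.43% with Myrf, 1.17% with Zfp488, 0.574% with Nkx2-2 and 0.356% with Nkx6-2.

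Other transcription factors of the lineage gave 0 of 35 measured genes past the threshold, and 4 at an unadjusted p under 0.05, 1 higher and 3 lower, beside 0.984% higher and 2.63% lower over all tested probe sets. Below 0 were 27 of the 35, with a median of -0.04, but 19 of 35 with array medians subtracted. The list was chosen with earlier results of these data known, so these counts do not test it. Among the 4 at an unadjusted p under 0.05 (limma), the higher one was Sox10, the partner of OLIG2 and MYRF. It read 8.84, 8.63 and 8.54 in the Sirt1 inactive arrays, against 8.50, 8.44 and 8.21 in the control arrays, and the genotypes did not overlap, which with higher values held for 2.62% of all tested probe sets. Its difference of 0.28 (SE 0.11) did not pass (limma, adjusted p = 0.959). The progenitor receptor genes Pdgfra (9.33, 8.85 and 8.84 in Sirt1 inactive arrays, 8.80, 8.36 and 7.48 in control arrays) and Gpr17 (8.68, 8.52 and 8.03, against 7.72, 7.76 and 7.49 in control arrays) also had no overlap and positive differences of 0.79 and 0.75, neither of which passed. Pdgfra differed by 0.42 without control replicate 3. With the replicate block and without the arrays of number 3, 19 probe sets passed (0.0827% of all tested). Gpr17 was 1 of them, at 0.86 (limma, adjusted p = 0.0334). This fit used fewer arrays, and little was left in it to estimate the variation. With the replicate block over all 6 arrays Gpr17 did not pass (limma, adjusted p = 0.51), nor did it in any other setting. The signs of these 3 are opposite to those of Olig2, Olig1 and Myrf on the same arrays, and that contrast was not tested. They do not stand for all progenitor markers: of 18 measured, these 3 included, 6 were above 0 and 12 below 0. Without control replicate 3, 13 were above 0 and 5 below 0. Sox9, a factor of glial and stem cells, read 11.40, 11.30 and 11.44 in Sirt1 inactive arrays and 11.58, 11.50 and 11.79 in control arrays, a difference of -0.25. Zeb2, which relieves BMP and Wnt inhibition in oligodendrocyte development, differed by -0.13 and Sp7 by -0.18, without overlap and without passing. No overlap with lower values held for 6.71% of all tested probe sets.

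Genes that act against differentiation gave 0 of 20 past the threshold and 12 below 0, with a median of -0.02. Gpr17, described above, is among them and had the highest difference of the list (0.75). Lingo1, a membrane protein that holds back myelination, read 7.83, 7.62 and 7.89 in the Sirt1 inactive arrays and 8.02, 7.94 and 8.22 in the control arrays. The groups did not overlap, which with lower values held for 6.71% of all tested probe sets, and the difference was -0.28. Its receptor partner Rtn4r differed by -0.18 and the Notch target Hes1 by 0.15. Genes of myelination, the targets that MYRF and SOX10 switch on, gave 0 of 26 measured genes past the threshold, with 17 below 0 and a median of -0.07. Gjc3, a connexin of the lineage, read 9.75, 9.46 and 9.41 in the Sirt1 inactive arrays, above all control values of 9.34, 9.31 and 8.79. Its difference was 0.39, with the lowest array again control replicate 3. Mbp, a structural protein of myelin, and Gpr37, a receptor of maturing oligodendrocytes, differed by -0.16 each, with overlap, and the connexin gene Gjb1 by -0.16.

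**Figure D4:**
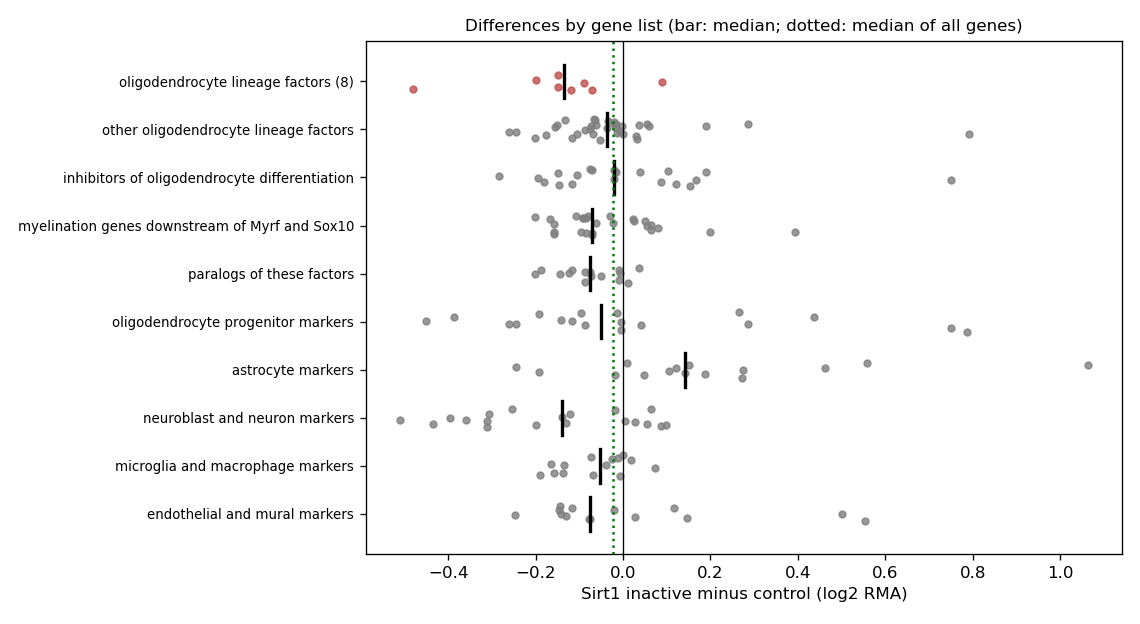
Log2 differences, Sirt1 inactive minus control (x axis), of the 8 factors (red) and of the measured members of 9 gene lists (grey), with the median of each list (black bar) and of all genes (dotted, -0.02). The 8 factors have a median of -0.13, close to that of neuroblast and neuron markers (-0.14). Astrocyte markers have the only median above 0 (0.14). Without control replicate 3 the median is -0.06 for the 8 factors and -0.07 for neuroblast and neuron markers. For astrocyte markers it is then 0.01, and for progenitor markers 0.04.

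Markers of oligodendrocyte progenitors were measured for 18 of 18 genes, with 12 below 0 and a median of -0.05, and 5 below 0 with a median of 0.04 without control replicate 3. Of markers for other cell types, 12 of 14 measured microglia and macrophage markers were below 0 (median -0.05) and 9 of 14 endothelial and mural markers (median -0.08), beside 60.1% of all tested probe sets. For microglia and macrophage markers it was 9 of 14 with array medians subtracted, after renewed quantile normalization, without control replicate 3 or without Sirt1 inactive replicate 2. None of the 9 gene lists had a member past the threshold, also with the replicate block. At an unadjusted p under 0.05 (limma) were 5 of 18 progenitor markers (4 higher and 1 lower) and 3 of 19 neuroblast and neuron markers (all lower). So were 2 of 15 astrocyte markers (1 higher and 1 lower). In the microglia list and in the endothelial and mural list it was 1 of 14 each, both lower. Over all tested probe sets it was 3.61% (0.984% higher and 2.63% lower). The 4 higher progenitor markers were Sox10, Pdgfra, Gpr17 and C1ql1, which differed by 0.44 without passing (limma, adjusted p = 0.959). Lists share genes: Sox9, the lower astrocyte marker, and Sox10 are also counted among the lineage factors. The lists were chosen with earlier results of these data known, so these counts do not test whether a list differs.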

How the data were processed

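The log2 values deposited by the authors, 1 for each probe set on each array, come from RMA (background adjustment and normalization) per the series' design text and the submitters' processing notes. The RMA version and the array's genome build are not stated in the labels. The log2 scale was read from the values, which ran from 3.02 to 13.6. RMA compresses differences of dim probe sets. The table held 0 columns of other samples and no normalization was added.

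GEO's platform annotation paired 21640 probe sets with 1 gene and 1321 with several. The 22961 with any gene entered a linear model of the 6 arrays with genotype as the term in limma 3.58.1 (R 4.3.3), with two-sided p-values, Benjamini-Hochberg adjustment and a threshold of 0.05. Genes are named from probe sets with 1 gene, the brightest where there are several; RefSeq's gene table (GRCm38.p6) held 21553 of these and changed 0 symbols. Promoter windows are RefSeq's. Arrays have no read depth: their number limits the precision, with a median standard error of 0.080. The fit was tested on simulated data.

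The 8 factors and the 9 gene lists (184 entries, 176 measured) were chosen with earlier results of these data known, so no list test is given. Some genes are entries of several lists. Named are Sirt1, all 8 factors, Sox10, Pdgfra and Gpr17, and the 3 nearest patterns per factor. Genes named from a list are among the up to 4 with the smallest unadjusted p in it, except Prrx1. The lists of other cell types are described mainly by counts and medians. The labels do not state what a replicate number stands for. Numbers were taken to pair the samples only because every same-numbered pair of arrays had correlated deviations (0.27 to 0.47). Alternatives were each array left out, the replicate block, that block without number 3, other scalings, array weights, an intensity trend with robust prior, other sets of tested probe sets, and averaging a gene's probe sets.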

Additional observations from a re-analysis of the deposited data

How the results depend on the processing

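No factor passed under any of the alternatives tried. With the replicate number as a block the assumed pairing changed no call. Adjusted p-values with the block were 0.656 to 0.791 for the 8 factors (limma), with unchanged differences. Of 90 comparisons under the 10 alternatives that can move the difference of a single gene, 87 kept its direction. With the replicate block and neither array of number 3, Nkx6-2 was 0.014 (limma, adjusted p = 0.974), Tcf7l2 was -0.022 (adjusted p = 0.963), and 19 probe sets passed in place of 0, none of them a factor described here. Without control replicate 3, Tcf7l2 was -0.007 (adjusted p = 1.0) and the number of the 8 factors above 0 was 0 in place of 1; the cause was not tested. Leaving out each array in turn moved the differences between -0.10 and -0.03 for Olig1, -0.22 and -0.05 for Olig2, -0.26 and -0.07 for Nkx2-2, -0.34 and -0.07 for Zfp488, -0.24 and -0.01 for Nkx6-2, -0.11 and -0.05 for Myrf, -0.01 and 0.17 for Tcf7l2, -0.96 and -0.08 for Myt1 and -0.47 and -0.36 for Sirt1. With array weights Nkx2-2 was -0.03 and Olig2 -0.07. Of the counts of list members above 0, 24 of 135 moved by over 1.5 times. The number of probe sets at an unadjusted p under 0.05 was 1741 with the replicate block, against 830 without it. With 3 arrays per genotype, intervals reached from 0.15 (Olig1) to 1.00 (Myt1) to either side.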

Other observations

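Relatives of the 8 factors were measured for 15 of 17 genes. Of these, 13 were below 0, with a median difference of -0.08 and a range of -0.20 to 0.04, and 0 passed (limma; 0 at an unadjusted p under 0.05 as well). Some of these relatives are also counted among the other lineage factors. With array medians subtracted 10 of 15 were below 0, and with array weights 8 of 15. Prdm8, a relative of Zfp488, read 7.73, 7.53 and 7.61 in the Sirt1 inactive arrays and 7.75, 7.65 and 8.08 in the control arrays, a difference of -0.20. The relatives of Tcf7l2, Tcf7l1 and Lef1, differed by -0.15 and -0.12, and Tcf7l2 itself by 0.09, or -0.01 without control replicate 3. Tcf7l1, which like Tcf7l2 can bind beta-catenin, read 8.50, 8.50 and 8.71 in the Sirt1 inactive arrays and 8.73, 8.60 and 8.80 in the control arrays, with its highest value in control replicate 3, the array in which Tcf7l2 was lowest. Bhlhe23, a helix-loop-helix relative of Olig1 and Olig2, differed by -0.12.

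Prrx1, a homeobox gene named here after its values were seen, had the highest difference of the other lineage factors, 0.79, and did not pass (limma). It was also not among the 4 genes of that list at an unadjusted p under 0.05 (limma).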
